A study of Mus musculus with 11 samples.

Results

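The genes described here encode the nuclear lamina, the proteins of the nuclear envelope that bind it, and the machinery that builds and maintains heterochromatin on histone H3 methylated at lysine 9 (H3K9). They were taken from a list of 33 gene names by matching each name to an Ensembl gene ID. Of these, 32 were among the 22369 genes of the deposited count table, and Syne1 was not analysed here. All 32 passed the filter on low values, a mean of 1 or more over the libraries in CPM, the usual scaling of counts by library size, as 12479 genes did. The 32 genes were 3 lamins, 6 proteins of the inner nuclear membrane or bound to it, 3 members of the LINC complex, 3 heterochromatin protein 1 (HP1) genes, 7 factors of H3K9 methylation, 7 other silencing factors and 3 histone deacetylases.

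Messenger RNA was sequenced, from total RNA, in 11 clones of the mouse embryonic stem cell line EBRTcH3, with 1 library per clone, and the clones are called 16 to 26 after their labels. All 11 express a tetracycline-controlled transactivator from ROSA26 and carry several piggyBac reporters driven by the mouse PGK promoter, delivered together with an mPB transposase plasmid. Each clone was picked as 1 colony from a pool sorted for high eGFP, and all were kept in medium conditioned by BRL cells with leukemia inhibitory factor, the MEK inhibitor PD0325901 and the GSK-3 inhibitor CHIR99021. The labels give neither a treatment nor an unmodified parental culture, so the comparisons are between clones, within 1 group. Each clone stands for itself alone, and the spread within a clone cannot be told apart from that between clones.

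The lamina is a meshwork of A-type and B-type lamins under the inner nuclear membrane, to which membrane proteins and LINC complexes are anchored. Chromatin that carries methylated H3K9 tends to lie against it and to be silent there. The mark is written by SUV39H, SETDB1 and the G9a and GLP enzymes and read by HP1 proteins, and silencing of this kind is one source of the position effects seen with integrated reporters.

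Counts in genes ran from 10846005 in clone 16 to 16868500 in clone 23 (median 14378599). The member with the fewest reads, Cbx3, had at least 186 in each library. The stem cell markers Pou5f1, Sox2, Nanog, Esrrb, Zfp42 and Tfcp2l1 were abundant in every clone, with a summed level of 5856 CPM in clone 17 to 7507 in clone 16. The 5 primitive endoderm markers summed to 2.78 to 6.93 CPM and the 5 fibroblast markers to 3.42 to 9.07. Clones 20 and 23 were the most alike libraries, with a chi-square per gene of 5.10 between their counts, set against sampling noise. The next pair, 23 and 25, stood at 14.9, and the least alike, 19 and 24, at 77.7. Clones 20 and 23 were counted as separate samples, and whether they arose independently was not tested. CPM below are on library sizes scaled by the trimmed mean of M-values (TMM), and errors are SD over the 11 clones. Where genes are ranked against each other, the levels are per kilobase of exon, as RPKM.

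The members were well expressed and mostly steady. Their median level was 24.7 RPKM, against 6.98 for the 12346 tested genes with an annotated length. In CPM, which sets the counts behind each test, 20 of the 32 exceeded 100. The coefficient of variation (CV) over the clones was below 10% for 12 members, between 10% and 20% for 15, and 20% or more for 5. The median CV was 12% for the members, 17.9% for all tested genes and 14.5% for the 9178 genes whose mean reached 10 CPM. These medians were not matched for abundance, as the median level was 144 CPM for the members and 31.1 for all tested genes.

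A gene was called variable when its counts spread more between clones than those of genes of like abundance, by edgeR's goodness-of-fit test with Benjamini-Hochberg adjustment at 0.05. Of the 32 members, 2 were variable, Atrx and Syne2, or 6.25%. Over all tested genes the share was 7.68%, so the count of members was near the background. At an unadjusted p under 0.05, 3 members passed, against 13.1% of all tested genes.

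**Figure D1:**
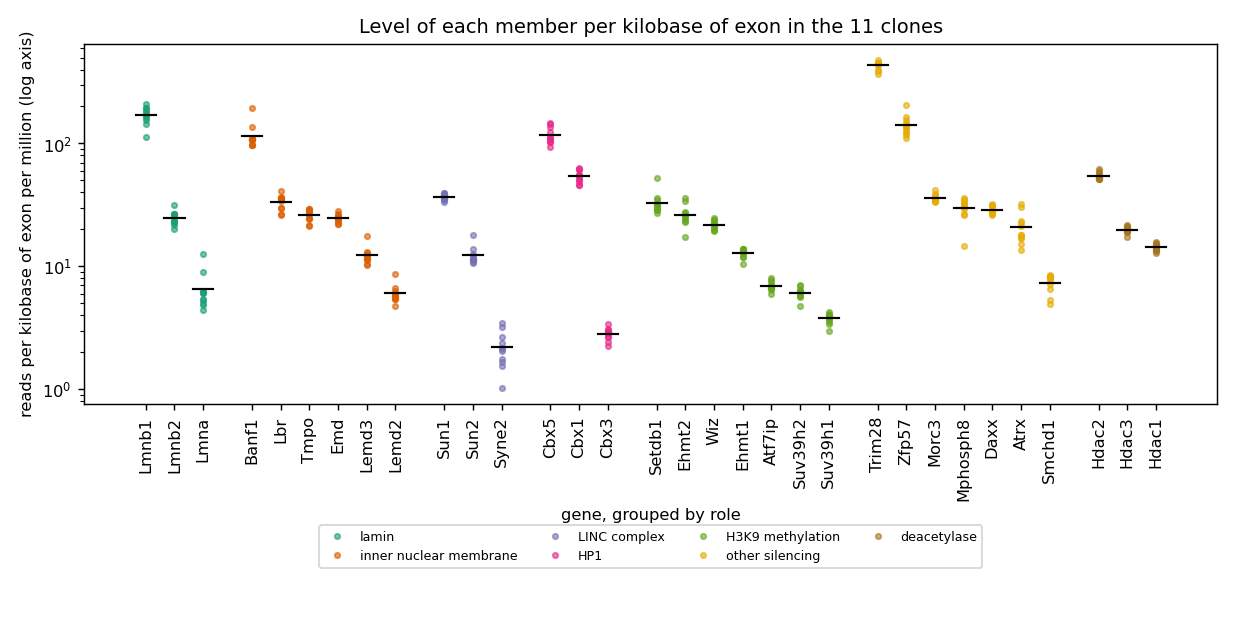
Level of each of the 32 genes in RPKM on a log axis, 1 point per clone (11 clones), grouped by role, with a black bar at the mean. Trim28 lay highest, at a mean of 432 RPKM, and Syne2 lowest, at 2.19.

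Atrx and Syne2 are shown first because they alone were called variable, and their promoters are printed to show how unlike the sequences before their start sites are. Each run holds the 250 bases upstream of the RefSeq start on GRCm38.p6, 5′ to 3′ on the gene's strand, with CG dinucleotides in capitals. The first lies at chrX:105929373-105929622 on the minus strand, the second at chr12:75818068-75818317 on the plus strand.
Atrx: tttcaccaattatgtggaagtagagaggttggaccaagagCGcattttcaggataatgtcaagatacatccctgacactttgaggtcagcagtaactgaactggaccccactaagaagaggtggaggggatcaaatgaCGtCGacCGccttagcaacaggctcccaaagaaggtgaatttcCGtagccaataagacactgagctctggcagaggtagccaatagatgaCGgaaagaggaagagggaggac
Syne2: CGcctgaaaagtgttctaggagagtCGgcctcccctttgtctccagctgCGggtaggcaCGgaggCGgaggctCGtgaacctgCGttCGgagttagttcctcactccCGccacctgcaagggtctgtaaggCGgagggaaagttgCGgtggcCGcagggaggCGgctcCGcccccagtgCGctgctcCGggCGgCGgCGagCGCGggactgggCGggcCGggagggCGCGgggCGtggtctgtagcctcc
The Atrx stretch held 6 CG dinucleotides and the Syne2 stretch 26.

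RefSeq promoters of 300 bases, from 250 before the start to 50 after it, were matched for 28 of the 32 members and for 9756 tested genes. The members held a median of 30.5 CG dinucleotides, from 6 to 45, against 21 for tested genes, and a median GC content of 67.7% against 61%. Both strands were searched for exact letters. The Sp1 box GGGCGG was present in 23 of 28 members (82.1%), 65.1% of promoters of tested genes and 35.7% of all 32851 promoters. The CCAAT box CCAAT was present in 12 members (42.9%), against 39.0% and 37.4%, and the TATA box TATAAA in 1, Zfp57 (3.57%, against 6.51% and 13.6%). The YY1 core AAGATGGCG was found in 2 members, Suv39h1 and Suv39h2, and in 3.3% of promoters of tested genes. Atrx held a CCAAT box and no Sp1 box, Syne2 the reverse. These matches describe letters only. Atrx, with 11 CG dinucleotides in its 300 bases, stood with Lmna (7), Cbx5 (8), Lmnb2 (6) and Zfp57 (6) at the low end of the members.

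Atrx (ENSMUSG00000031229, chromosome X) encodes a chromatin remodeller that, with DAXX, deposits histone H3.3 at heterochromatin. Its lowest level was 293 CPM in clone 25, its median 394 and its highest 695 in clone 17. Clones 17 (695 CPM), 16 (662), 19 (507), 23 (494) and 18 (466) lay above the mean of 452 ± 130 CPM (n = 11), and the other 6 clones lay between 293 and 394. The CV was 28.7%, with an adjusted p of 0.0232 by edgeR's goodness of fit. The call depends on single clones, since the adjusted p rose to 0.0797 when clone 16 was left out, to 0.166 when clone 17 was, to 0.0538 for clone 22 and to 0.142 for clone 25. No single clone differed from the other 10 by the edgeR test described below, and the genes around Atrx were shifted by at most 0.05 (log2) in any clone.

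Syne2 (ENSMUSG00000063450, chromosome 12) encodes nesprin-2, a giant protein of the outer nuclear membrane that links SUN proteins to the cytoskeleton. It ran from 27.5 CPM in clone 24 through a median of 57.0 to 93.0 in clone 17. Clone 24 lay below and clones 17 (93.0 CPM), 26 (86.5) and 25 (71.6) above the remaining clones, at 41.0 to 63.7. The mean was 58.6 ± 19.5 CPM (n = 11), the CV 33.2% and the adjusted p 0.00761 (edgeR goodness of fit). Without clone 24 the adjusted p was 0.181. Its order over the clones was not that of Atrx, as clone 16 was the second highest for Atrx and the second lowest for Syne2.

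A-type lamins come from Lmna, which is low in embryonic stem cells and rises on differentiation in many tissues. Lmna was lowest in clone 25 (25.7 CPM), with a median of 35.4, and highest in clone 17 (73.7), followed by clone 16 (52.6). The other 9 clones lay between 25.7 and 36.5 CPM. Its CV of 36.5% was the largest of the members, but the spread did not pass the test (edgeR goodness of fit, unadjusted p = 0.00709, adjusted p = 0.0818). The adjusted p was 0.0254 with clone 19 left out, 0.179 with clone 25 and 1 with clone 17. In clone 16 the genes around Lmna were also higher, by a median of 0.62 (log2), while in clone 17 their shift was 0.08.

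**Figure D2:**
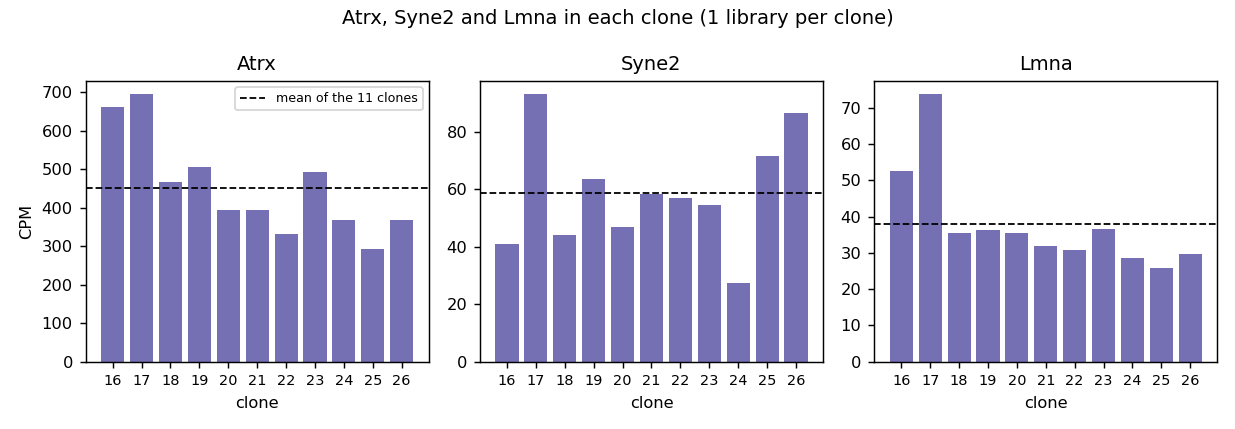
CPM of Atrx, Syne2 and Lmna in each of the 11 clones (bars, 1 library per clone), with a dashed line at the mean. Clones 16 and 17 are the highest for Atrx and Lmna, and clone 24 the lowest for Syne2.

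Otx2, a marker of the primed epiblast and early lineages, was low in the clones where Atrx was highest. Of 5 such markers listed, 4 were in the table (Fgf5, Otx2, T and Cdx2), and Fgf5 and Cdx2 were at 0 in some clones. Fgf5, T and Cdx2 had means of only 0.41, 0.73 and 0.12 CPM, and Cdx2 was highest in clone 19 (0.52). The summed level of the 4, nearly all of it Otx2, was 15.8 CPM in clone 16, 14.0 in clone 17 and 13.5 in clone 19, and 30.2 to 56.2 in the other 8 clones. Clones 16, 17 and 19 were also the 3 with the highest Atrx. Lmna was highest in clones 17 and 16, but in clone 19 it stood at 36.3 CPM, near its median of 35.4. The part of Otx2 in the Atrx and Lmna levels was not tested.

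Among the lamins, Lmnb1 was the most abundant per kilobase. It stood at 505 ± 79.6 CPM (n = 11), from 333 in clone 26 through a median of 504 to 620.2 in clone 20. In clone 26 it lay below the other 10 clones, which ran from 429 to 620.2 CPM, but that difference was not called (log2 fold change -0.65 ± 0.18 SE, adjusted p = 0.310, edgeR quasi-likelihood test). Lmnb2, the second B-type lamin, stood at 106 ± 13.3 CPM, lowest in clone 16 (86.7) and highest in clone 24 (135). Per kilobase of exon, Lmnb1 exceeded Lmnb2 by 6.86-fold and Lmna by 27.2-fold in the mean, and it was the highest in every clone. Over Lmna the fold depended on the length used, at 19.2 with the longest transcript, 15.3 with bases shared with no other gene and 13.8 with no scaling. The unshared bases were those of the longest protein-coding transcript, of which 0% was shared for Lmna and Lmnb1. Lmnb1 made up 84.3% ± 2.62 of the lamin RPKM, Lmnb2 12.4% ± 2.13 and Lmna 3.27% ± 1.22 (n = 11, union of exons). With unshared bases the share of Lmna was 5.51% ± 1.99. The share of Lmna ranged from 2.07% in clone 25 to 6.26% in clone 17, and that of Lmnb2 was highest in clone 26 (18%).

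The inner membrane proteins spread less as a group than singly, with a summed level of 769 ± 36.0 CPM. Per kilobase, Banf1 (115 RPKM), Lbr (33.4) and Tmpo (26.1) were the highest. Tmpo, whose product LAP2 binds lamins and BAF, stood at 287 ± 31.7 CPM (233 in clone 17 to 323 in clone 20). Lbr, the lamin B receptor, which tethers heterochromatin through HP1, stood at 159 ± 22 CPM, lowest in clones 19 (124) and 16 (128) and highest in clone 26 (195). Emd, encoding emerin of the LEM-domain family, was among the steadiest, at 62.1 ± 4.85 CPM (56.0 to 71.7, CV 7.80%).
Lemd2 and Lemd3 also encode LEM-domain proteins of the inner membrane. Clone 19 was the highest for both, with Lemd3 at 84.8 CPM against 49.8 to 62.9 in the other 10 and Lemd2 at 42.6 against 23.3 to 32.6. Neither was called (adjusted p = 0.136 and 0.213, edgeR quasi-likelihood test). Banf1 encodes BAF, the small DNA-binding protein that LEM domains hold. It lay between 145 and 204 CPM in 10 clones, with a median of 161 over all 11, and stood apart in clone 17 at 289.8. Of the bases of the Banf1 transcript, 33.9% aligned to 1 other gene, Eif1ad. The sources used here state neither the strand setting nor how reads matching several places were counted. The level of Banf1 is uncertain to that extent.

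The LINC complex joins SUN proteins of the inner membrane to nesprins. Sun1 was the steadiest of all members, at 280.4 ± 15.1 CPM (252 in clone 19 to 299 in clone 18, CV 5.40%). Sun2 stood at 66.5 ± 11.1 CPM, with 96.6 in clone 18 and 57.8 to 75.4 in the other 10. Sun1 exceeded Sun2 by 3.04-fold per kilobase in the mean over the clones.

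Of the HP1 genes, Cbx5 (HP1 alpha) stood at 1054 ± 157 CPM, with a median of 1001. It was highest in clones 18 (1309.8), 16 (1288) and 19 (1216), the 3 clones in which the genes around it were also higher, and lowest in clone 21 (841). Cbx1 (HP1 beta) stood at 230.2 ± 26.3 CPM (195 in clone 21 to 268 in clone 24). Cbx3 (HP1 gamma) was counted at only 17 ± 1.91 CPM, from 13.6 in clone 19 to 20.3 in clone 17. Of the bases of its transcript, 33.2% aligned to 9 other genes, 8 of them named pseudogenes, and the sources used here do not state how reads matching several places were counted. The low count of Cbx3 is therefore uncertain.

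The H3K9 methylation factors had a median CV of 9.39%. The SUV39H enzymes, which write H3K9 trimethylation at pericentric repeats, were among the lowest members per kilobase, at 3.77 RPKM for Suv39h1 and 6.11 for Suv39h2. In CPM they stood at 19.9 ± 1.87 and 27.0 ± 2.74. Of the Suv39h1 transcript, 25.2% aligned to 1 other gene, Gm14820, so its count carries the same limit as that of Banf1. Suv39h1 was lowest in clone 26 (15.8, against 18 to 22.5 elsewhere) and Suv39h2 in clone 18 (21.1, against 24.6 to 30.9), and neither difference was called.
Setdb1, the methyltransferase recruited by KRAB zinc finger proteins through TRIM28, had a median of 211 CPM. It lay between 187 and 248 in 10 clones and stood apart in clone 16 at 357. Its nuclear partner Atf7ip stood at 144 ± 13.0 CPM, highest in clone 16 as well (167).
Ehmt1 (GLP) and Ehmt2 (G9a) form the enzyme that writes H3K9 dimethylation, and WIZ stabilises it on chromatin. Ehmt1 stood at 104 ± 8.52 CPM and Wiz at 202 ± 16.3. Of the Wiz transcript, 40.45% aligned to 1 other gene, Gm26858, so its count carries that limit too. Ehmt2 spread more, at 144 ± 27.5 CPM, from 94.9 in clone 24 to 196 in clone 19. Clone 19 was the lowest for Ehmt1 (84.3) and the highest for Ehmt2.

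Of the other silencing factors, Trim28 (KAP1), the scaffold that joins KRAB zinc finger proteins to SETDB1 and HP1, was the most abundant member per kilobase. It stood at 1794 ± 136 CPM with a CV of 7.58%, lowest in clone 21 (1537) and highest in clone 24 (1975). Zfp57, the zinc finger protein that keeps methylation at imprinted regions through TRIM28, stood at 535 ± 99.7 CPM (420.3 in clone 26, 774 in clone 16).
Mphosph8 encodes MPP8, an H3K9me reader of the HUSH complex. It lay between 94.3 and 129 CPM in 10 clones, with a median of 112 over all 11, and fell outside them in clone 21 at 52.7. Daxx, the H3.3 chaperone partner of ATRX, was steady at 91.1 ± 6.41 CPM.
Smchd1, which acts on the inactive X and on imprinted clusters, was lowest in clones 19 (98.9) and 16 (107) and between 131 and 170 CPM in the other 9. Morc3, an ATPase of nuclear bodies with a role in silencing endogenous retroviruses, stood at 196 ± 13.7 CPM.

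The class I deacetylases, which remove acetyl groups ahead of methylation, were the narrowest group, with CVs of 6.37% to 6.95%. Hdac2 stood at 245 ± 17 CPM, Hdac3 at 80.8 ± 5.14 and Hdac1 at 49.2 ± 3.31.

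**Figure D3:**
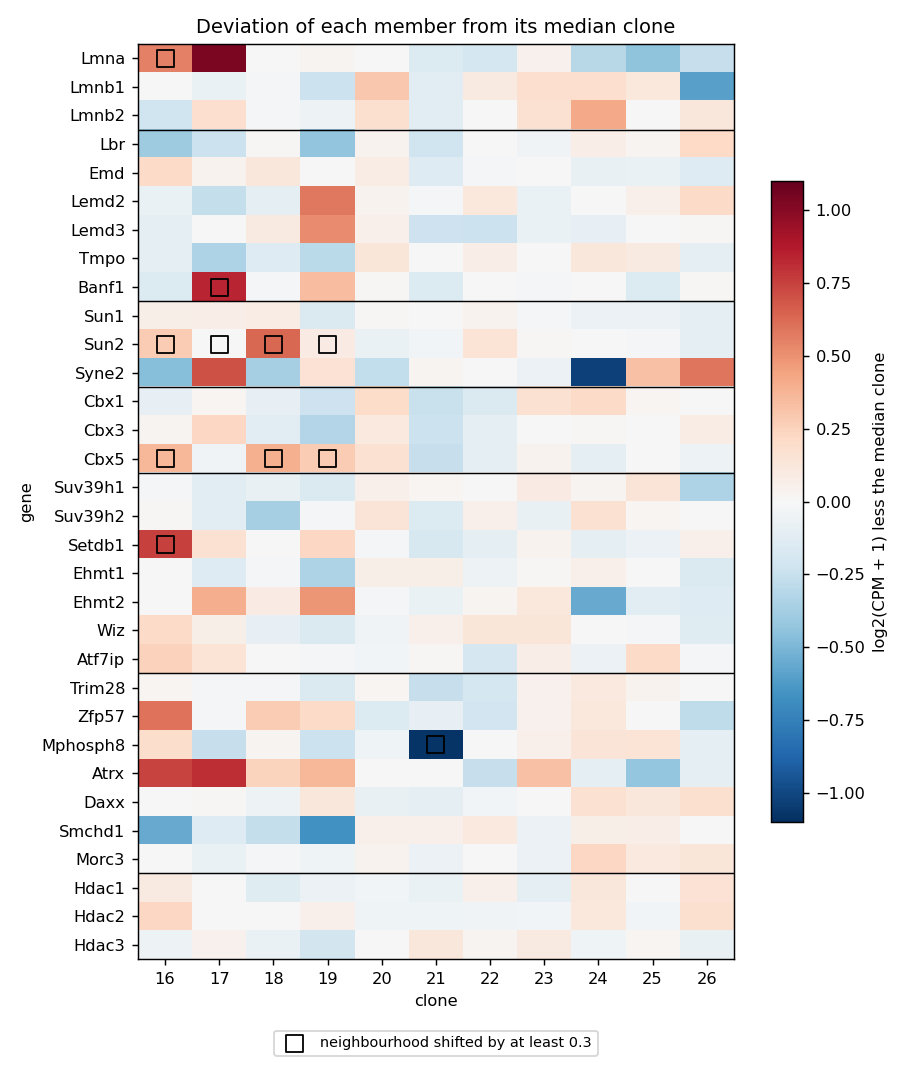
Deviation of each member from its median clone, as log2(CPM + 1), for the 32 genes (rows) and 11 clones (columns), with squares where the surrounding genes were shifted by at least 0.3. The darkest cells include Mphosph8 in clone 21, Syne2 in clone 24, Lmna in clone 17 and Banf1 in clone 17.

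As a set, the 12 lamina, membrane and LINC genes had a median CV of 15.9% and the 20 HP1, methylation, silencing and deacetylase genes 9.78%. The second set was mixed. Its median CV was 16.8% for the other silencing factors, 11.4% for HP1, 9.39% for H3K9 methylation and 6.73% for the deacetylases. Per kilobase, the median levels of the first and the second set were close, at 24.7 and 24.1 RPKM. The sets were not matched in CPM, which sets the counts behind each CV. The closeness in RPKM therefore does not make the CVs comparable for abundance. The first set summed to 1823 ± 103 CPM, lowest in clone 26 (1659.7) and highest in clone 20 (1975). The second summed to 5865 ± 441 CPM, lowest in clone 21 (5136) and highest in clone 16 (6799). Each set held 1 of the variable genes. These are descriptions, and the difference in CV between the sets was not tested.

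Each clone was then compared with the other 10, gene by gene, with edgeR's quasi-likelihood test and Benjamini-Hochberg adjustment over all 137269 pairs of gene and clone. Such a call says that 1 library lay outside the spread of the rest. Of 352 pairs of member and clone, 3 were called, 2 higher and 1 lower (0.852%), against 0.213% of all pairs (0.105% higher and 0.109% lower). At an unadjusted p under 0.05, 18 member pairs passed (5.11%), against 5.92% of all pairs. Of the members, 3 of 32 were called in some clone (9.38%), against 2.35% of tested genes.

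Mphosph8 (ENSMUSG00000079184, chromosome 14) was lower in clone 21, at 52.7 CPM against 112 ± 11.9 in the others (SD, n = 10). The log2 fold change was -1.09 ± 0.18 (SE), with an adjusted p of 0.0385 by the edgeR quasi-likelihood test. Banf1 (ENSMUSG00000024844, chromosome 19), whose count carries the limit given above, was higher in clone 17. It stood there at 289.8 CPM and elsewhere at 161 ± 17, so that the log2 fold change was 0.85 ± 0.14 (adjusted p = 0.0390, same test). Setdb1 (ENSMUSG00000015697, chromosome 3) was higher in clone 16. It stood there at 357 CPM and elsewhere at 212 ± 19.1, so that the log2 fold change was 0.75 ± 0.13 (adjusted p = 0.0479, same test). In each case the called clone was the lowest or the highest of the 11, a place that some clone holds for every gene. When each other clone was left out in turn, the log2 fold change ran from -1.11 to -1.06 for Mphosph8, 0.83 to 0.88 for Banf1 and 0.73 to 0.78 for Setdb1. The calls were lost for 7, 9 and 8 of the 10 clones left out, and the adjusted p then rose to as much as 0.0756 for Mphosph8, 0.0789 for Banf1 and 0.0969 for Setdb1. Lmna in clone 17 had the largest upward difference, 1.11 ± 0.25 (73.7 CPM against 34.3 ± 7.40), and was not called (adjusted p = 0.145). DESeq2's Wald test called 8 members, adding Lemd2, Lemd3, Lmna, Lmnb1 and Sun2 (25% of members, against 11.5% of tested genes by the same test), in 8 of the 352 pairs, where it called 1.05% of all pairs.

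All 3 called pairs lay where the surrounding genes had moved too. For each gene and clone, a neighbourhood shift was taken as the median, over up to 25 genes on each side, of log2(CPM + 1) less the median clone. The shift was -0.92 around Mphosph8 in clone 21, 0.61 around Banf1 in clone 17 and 0.53 around Setdb1 in clone 16. Neighbourhoods shifted by at least 0.3 held 11 of the 352 member pairs, in 6 members (Cbx5, Lmna, Setdb1, Sun2, Banf1 and Mphosph8). In 10 of the 11 the member lay on the same side of its median clone as its neighbours, and Sun2 in clone 17 lay at its median. Sun2 had shifted neighbours in clones 16, 17, 18 and 19 (0.47, 0.53, 0.36 and 0.48), yet it exceeded every other clone by more than 20 CPM only in clone 18. Among the 341 pairs elsewhere 0 were called (edgeR) and 14 passed an unadjusted p under 0.05, Syne2, Atrx, Lemd2 and Lemd3 among them. Over all tested genes, 90.1% of 3833 pairs in shifted neighbourhoods lay on the side of their neighbours, 5.22% of them were called, and they held 68.3% of all calls. Gains or losses of DNA were not measured here, and the origin of the shifts was not tested.

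**Figure D4:**
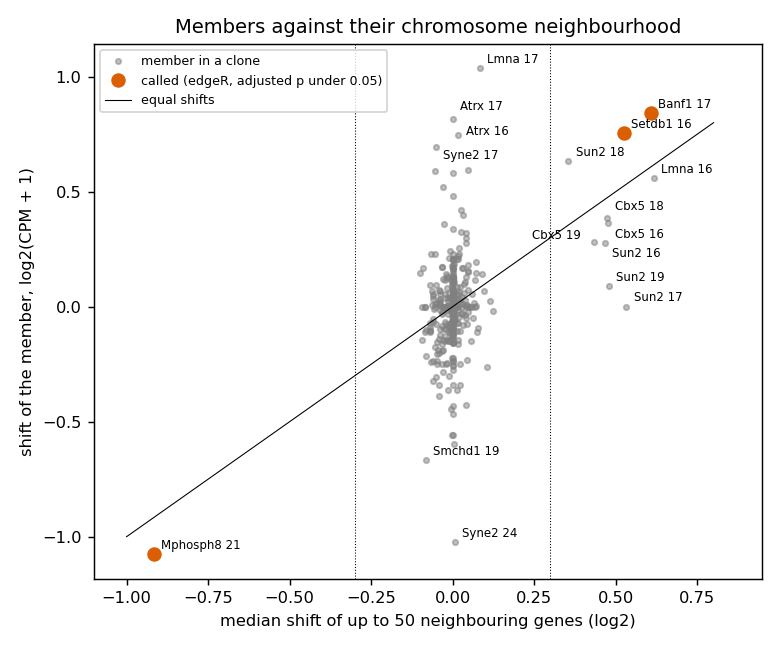
Shift of each member in each clone (vertical, log2(CPM + 1) less the median clone) against the median shift of up to 50 neighbouring genes (horizontal), with dotted lines at a shift of 0.3 either way. The 3 called pairs (large points) lie near the line of equal shifts, while Lmna in clone 17, Atrx in clones 16 and 17 and Syne2 in clone 24 lie near a neighbour shift of 0.

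Paralogue choice was compared as the log2 ratio of levels per kilobase in each clone, for 11 of 12 listed pairs, since Syne1 was not analysed. With the union of annotated exons as the length, each of the 11 mean ratios differed from 0 (exact two-sided sign-flip permutation test over 11 clones, p = 0.000977, the smallest the design allows, and 0.000977 after Benjamini-Hochberg adjustment over the pairs). The test covers the spread between clones, and an error in a gene's length is common to all clones.
Beside the lamins and SUN proteins, Cbx1 exceeded Cbx3 by 19-fold (log2 4.25 ± 0.13) and Cbx5 exceeded Cbx3 by 41.2-fold (5.36 ± 0.28). Over the other lengths these folds ran from 10.2 to 16.7 for Cbx1, and for Cbx5 they were 20.6 with the longest transcript, 8.88 with unshared bases and 61.9 with no scaling. Both ratios rest on the count of Cbx3, which is uncertain as given above. Ehmt2 exceeded Ehmt1 by 2.03-fold (log2 ratio of Ehmt1 to Ehmt2 -1.02 ± 0.37), and Lemd3 exceeded Lemd2 by 2.05-fold. Hdac2 exceeded Hdac1 by 3.82-fold, and this ratio was the least variable, at -1.94 ± 0.07.

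For 4 pairs the direction depended on the length used. With the longest transcript, Suv39h1 and Suv39h2 were indistinguishable (log2 ratio 0.03, adjusted exact permutation p = 0.559), where union exons gave -0.70 ± 0.19. A further length, chosen after the data were seen, was the longest protein-coding transcript less the bases that aligned to other genes. It changed both the transcript and the bases used, and the counts were left whole. With it the ratio of Suv39h1 to Suv39h2 was 0.36, and Cbx1 to Cbx5 moved from -1.11 to 0.19. Hdac1 to Hdac2 moved from -1.94 to 0.15 and Hdac3 to Hdac1 from 0.48 to -1.07 (-0.10 with the longest transcript). Shared bases were 7.51% of the transcript for Cbx1 and 0% for Cbx5, so little of the move of that pair came from removing them. Hdac1 shares 71.1% of its transcript with 2 other genes, one of which, Gm10093, was counted at 26.6 ± 3.31 CPM in the same table. The order Lmnb1, Lmnb2, Lmna, the excess of Sun1 over Sun2, of Ehmt2 over Ehmt1, of Lemd3 over Lemd2 and of both Cbx1 and Cbx5 over Cbx3 kept their direction under every length used, although the folds of the HP1 pairs and of Lmnb1 over Lmna moved as given above and that of Lemd3 over Lemd2 fell as low as 1.12. A change of length leaves the counts as they were, so it cannot test the uncertain count of Cbx3.

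**Figure D5:**
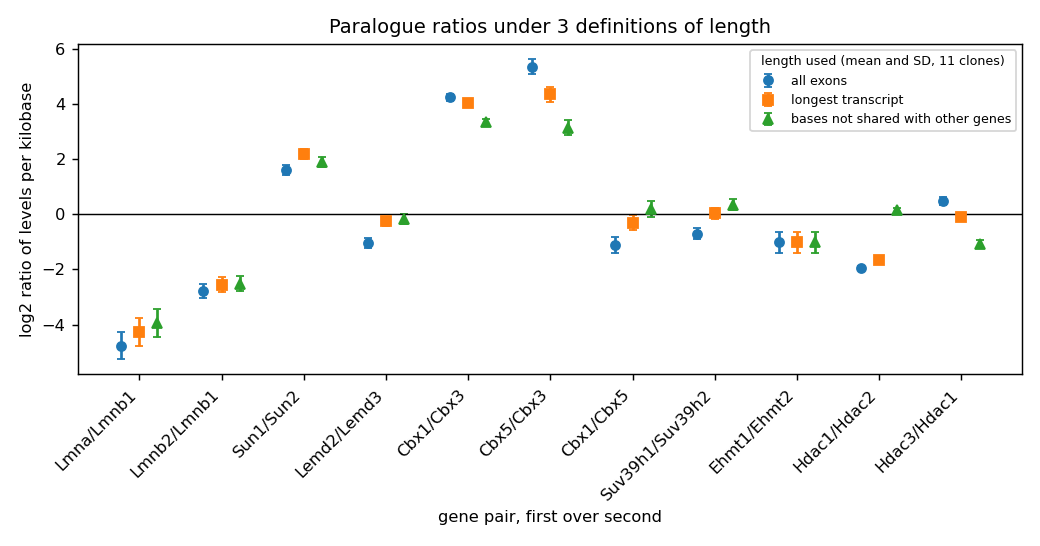
Log2 ratio of levels per kilobase for 11 gene pairs, first over second, as mean and SD over 11 clones, under 3 definitions of gene length. The ratios of Cbx1 to Cbx5, Suv39h1 to Suv39h2, Hdac1 to Hdac2 and Hdac3 to Hdac1 cross 0 between definitions.

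Transcript levels were then compared between proteins that bind each other. For 20 pairs of known partners, Pearson's r of log2(CPM + 0.1) ran from -0.73 to 0.70, with 12 above 0 and 8 below, and 0 passed after Benjamini-Hochberg adjustment over the 20 (permutation test with 100000 resamples, lowest adjusted p 0.115 for r and 0.310 for Spearman's rho). Unadjusted, 4 passed by r and 2 by rho. Hdac1 and Hdac2 had the highest value (r = 0.70, permutation p = 0.0153, adjusted 0.115, rho = 0.54, permutation p = 0.0926, r = 0.66 without clones 18 and 26), and Hdac2 ranked 96 of 12478 genes by likeness to Hdac1. Ehmt1 and Ehmt2 gave r = -0.67 (permutation p = 0.0320, adjusted 0.160, rho = -0.43, permutation p = 0.195, r = -0.72 without clones 19 and 26). Lmna and Tmpo, the pair that passed unadjusted by both measures, gave r = -0.69 (permutation p = 0.0173, adjusted 0.115, rho = -0.66, permutation p = 0.0310, adjusted 0.310, r = -0.48 without clones 16 and 17). Tmpo and Banf1 gave r = -0.73 (permutation p = 0.00919, adjusted 0.115, rho = -0.27, permutation p = 0.420), which rested on clones 17 and 19, since r was 0.14 without them. Atrx and Daxx gave r = -0.22 (permutation p = 0.506, adjusted 0.675, rho = -0.18, permutation p = 0.596, r = -0.21 without clones 16 and 17). The median partner ranked at percentile 61.6 among all tested genes.

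Other genes of the same structures were described in 2 further lists. Their median CVs were 14.1% (nuclear envelope) and 12.4% (H3K9 and silencing), against 14.5% for genes whose mean reached 10 CPM. Of 21 further nuclear envelope genes, 20 were tested and 0 were variable (edgeR goodness of fit, 1 at an unadjusted p under 0.05, 0 with DESeq2's dispersion trend). Over all tested genes edgeR called 7.68%, and 13.1% passed unadjusted. The counts of these short lists were not tested against those shares. The genes with the most CPM, a measure that grows with transcript length, were Tpr (675.5 ± 74.1) and Nup153 (276 ± 39.0), which form the nuclear basket, and Fntb (149 ± 21), a subunit of the enzyme that farnesylates lamins. Per kilobase they stood at 64.4, 39.3 and 37.4 RPKM. Of 35 further genes of H3K9 and silencing, 34 were tested and 0 were variable (1 unadjusted, and 1, Pphln1, with DESeq2's trend, which called 8.26% of tested genes). Those with the most CPM were H3f3b (1124 ± 157), which encodes histone H3.3, Chd4 (651 ± 79.8) and Hells (507 ± 95.3), both chromatin remodellers, at 378, 81.2 and 70.3 RPKM.
In each list 1 gene was called in 1 clone by the edgeR quasi-likelihood test, again beside neighbours that had moved. These 2 of 54 tested genes (3.7%) compare with 2.35% of all tested genes, so the count was near the background. Icmt, which methylates farnesylated lamins, was lower in clone 19 (28.5 CPM against 58.7 ± 5.17, log2 fold change -1.04 ± 0.16, adjusted p = 0.0265, neighbourhood -0.92). Pogz, a zinc finger protein bound to HP1, was higher in clone 16 (300.3 CPM against 185 ± 10.01, 0.70 ± 0.10, adjusted p = 0.0207, neighbourhood 0.54).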

How the data were processed

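Total RNA of the 11 clones was made into libraries with the TruSeq RNA kit, per the labels' protocols. TopHat 1.4.0 and Bowtie 0.12.7 were used, per the submitters' processing notes, which name the builds mm9 and hg19. The values are read counts per gene as deposited by the authors, whole numbers in 1 table whose name gives Ensembl release 66. The table held 0 columns without a label. The sources used here do not state the counting tool, the strand setting or how reads matching several places were handled.

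The whole table was fitted with edgeR 4.0.16 (R 4.3.3) after TMM scaling (factors 0.971 to 1.04), keeping 12479 genes whose mean reached 1 CPM. For the spread between clones, a negative binomial model without covariates and with a dispersion trend was fitted, and its deviance was tested against chi-square. Each clone was set against the other 10 by the quasi-likelihood test. The SE of a fold change was derived from it and the F statistic. The common CV was 24.8%. Replicates are clones with 1 library each, so p-values measure the spread between these libraries. GENCODE vM21 (GRCm38), which is later than the authors' annotation, gave lengths, gene order and symbols, and no coordinates of the counts' build are given. Neighbourhoods used genes whose mean reached 5 CPM. Shared bases came from BLAST 2.17.0 alignments of each member's longest protein-coding transcript to transcripts of other genes (identity of at least 95% over at least 50 bases). Promoters came from RefSeq on GRCm38.p6. Alternatives were DESeq2 1.42.0, no filter on low counts, other gene lengths, leaving out genes in shifted neighbourhoods and leaving out each clone.

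The members, gene lists and tests were chosen with earlier results of these data known. The text names every member, the 3 most abundant and each called gene of the 2 further lists, Pou5f1, Sox2 and Nanog, and genes of the marker lists. Gm10093 and Pphln1 were added after their values were seen.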

Additional observations from a re-analysis of the deposited data

How the results depend on the processing

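Of 16 alternatives for the count of variable members, 11 gave a count within 1.5 times of 2. The exceptions left out clone 16, 17, 22, 24 or 25 and gave 1, and the leave-one-out counts ran from 1 to 3. Calls of a clone against the others were less stable: leave-one-out counts ran from 0 to 3 (0 without clone 18 or any 1 of clones 20 to 26), DESeq2's Wald test gave 8 (it called 11.5% of tested genes, edgeR 2.35%), and 0 remained without genes in shifted neighbourhoods, where 26 members were tested and the 3 called genes were not among them. For the further lists, variable genes numbered 1 with DESeq2's dispersion trend and 0 to 1 when each clone was left out, and clone calls 9 of 54 genes (16.7%) with the Wald test, 0 without genes in shifted neighbourhoods and 1 to 2 by leave-one-out. The cause of these changes was not tested beyond the fewer genes or clones used. Setdb1 in clone 16 had an adjusted p of 0.0631 with no filter on low counts. The paralogue count ran from 9 to 11 of 11. Directions reversed for Suv39h1 to Suv39h2 (0.034 with the longest transcript, 0.36 with unshared bases), Hdac3 to Hdac1 (-0.10 and -1.07), Cbx1 to Cbx5 (0.19 with unshared bases) and Hdac1 to Hdac2 (0.15 with unshared bases). Partner pairs passing numbered 0 under all 13 alternatives.

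No paired analysis was possible because the clones form 1 group with 1 library each. The fewest counts of a member in a library were 186, for Cbx3, so counting error is part of the spread of the low members. With 1 library per clone, variation within a clone was not measured.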

Other observations

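Over all 496 pairs of members, the median Pearson's r of log2(CPM + 0.1) across the 11 clones was 0.06, with 5 pairs above 0.8 and 2 below -0.8. These pairs were singled out after their values were seen, so they are given without p-values, and all share the same 11 libraries. The share of all tested gene pairs beyond 0.8 either way is not given here. The count is therefore not read as a trait of the members. Lmna and Atrx gave r = 0.92 (rho = 0.96), or 0.90 without clones 16 and 17 and 0.78 after each gene's neighbourhood shift was subtracted, and Lmna ranked 3 of 12478 genes by likeness to Atrx. Lmnb1 and Suv39h1 gave r = 0.90 (0.76 without clones 20 and 26), and Cbx1 and Trim28 0.85 (0.74 without clones 19 and 21). Lmnb2 and Cbx1 gave 0.80 (0.87 without clones 16 and 24). Emd and Cbx5 gave 0.84 (0.82 without clones 16 and 26), which became 0.17 after subtraction of the neighbourhood shifts. The 2 negative pairs were Ehmt2 with Morc3 (-0.83, or -0.71 without clones 19 and 24) and Lemd2 with Sun1 (-0.82, or -0.60 without clones 17 and 19).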
